A study of Mus musculus with 12 samples.

Results

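Expression of 7 cathepsins, the cathepsin inhibitor cystatin C and 2 lysosomal membrane glycoproteins was examined in mouse lacrimal gland, the gland that makes the watery part of tears. The genes were chosen by symbol (Ctss, Ctsb, Ctsc, Ctsd, Ctsh, Ctsl, Ctsz, Cst3, Lamp1 and Lamp2), and all 10 were among the 11736 genes listed and among the 10325 genes with enough expression to be tested. RNA was sequenced from 4 groups of 3 libraries each: glands labelled ESS, glands of NOD mice aged 12 weeks, glands of NOD mice aged 8 weeks, and control glands. NOD mice (non-obese diabetic, an inbred strain) develop autoimmune inflammation of the lacrimal and salivary glands, and the study set a model of Sjögren's syndrome made with a lacrimal autoantigen beside them. The description of the series writes LGSS where the labels have ESS, and both names were taken as one group. No label gives the strain or age of control and ESS mice or the sex of any mouse, so strain, sex and age cannot be told apart from the group. Whether the 3 libraries of a group are from 3 animals is not stated, so every p-value measures the spread between these samples, which may be technical.

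Cathepsins are proteases that digest proteins inside lysosomes, the acidic compartments in which cells break down what they take up or discard. Most of the cathepsins here are cysteine proteases, while cathepsin D is an aspartic protease. Cystatin C is a secreted protein that blocks cysteine cathepsins. Lamp1 and Lamp2 are the heavily glycosylated proteins that line the lysosomal membrane. Cathepsin S, made mainly by macrophages, dendritic cells and B cells, trims the invariant chain Cd74 from MHC class II molecules before they are loaded with peptide. Its activity in tears has been reported as raised in Sjögren's syndrome and in NOD mice with lacrimal disease. The present data are of RNA in the gland, and neither tears nor enzyme activity were measured.

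The labelled tissue was checked against gland markers. The water channel Aqp5 averaged 197 FPKM in ESS, 181 FPKM in NOD 12-week, 165 FPKM in NOD 8-week and 208 FPKM in control glands, where FPKM counts fragments for each kilobase of a gene and corrects for the size of the library. All 8 acinar markers had values. Their summed FPKM ranged from 5045 to 6946 in ESS, 6867 to 7162 in NOD at 12 weeks, 6713 to 7573 in NOD at 8 weeks and 3064 to 4476 in control, mostly from the secreted lipocalin Lcn11. Without Lcn11 the other 7 summed to 730 to 879 in ESS, 743 to 783 in NOD at 12 weeks, 691 to 751 in NOD at 8 weeks and 772 to 879 FPKM in control. In NOD against control 1 of the 8 rose and 0 fell at 12 weeks, and 2 rose and 3 fell at 8 weeks, the falls being Aqp5, Pigr and Rab27b (limma). Of all genes 5.52% rose and 27.8% fell at 12 weeks, and 5.30% rose and 22.1% fell at 8 weeks. ESS libraries 1 and 2 also carried salivary transcripts: Bpifa2, a salivary secreted protein, stood at 6915 and 4790 FPKM there and at 12.2 FPKM in ESS library 3, against at most 12.9 FPKM in the libraries of the other groups. Results that use ESS libraries are therefore also given without those 2 libraries. Absolute read depth is unknown, since only FPKM were used. From the steps between the lowest values, relative depth ran from 0.783 to 1.11 of the mean over libraries. This estimate is rough. In single libraries 41.7% to 53.4% of those values lay within 0.1 of a whole number of steps, where 20% would by chance.

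The regulatory sequence of Ctss is shown first because Ctss differed most between groups among the 10 genes. Ctss (ENSMUSG00000038642.10) lies on the plus strand of chromosome 3 at 95526786-95556403 of GRCm38. The 250 bases before its start (chr3:95526536-95526785, plus strand, GRCm38.p6, from RefSeq) are printed with capitals at GAAA, any 2 bases and GAAA again, a pattern that interferon regulatory factors are known to bind. The same length before the start of Lamp1 (chr8:13158911-13159160, plus strand, GRCm38.p6, from RefSeq) is printed as a gene whose level did not pass any test. Its capitals mark CACGTG, the core of the element through which the factor TFEB is known to drive lysosomal genes.
Ctss: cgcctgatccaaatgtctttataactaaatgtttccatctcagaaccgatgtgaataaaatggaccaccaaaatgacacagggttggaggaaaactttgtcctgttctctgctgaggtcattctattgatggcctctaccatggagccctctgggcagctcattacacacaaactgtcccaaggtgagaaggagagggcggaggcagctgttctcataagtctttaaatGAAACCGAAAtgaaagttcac
Lamp1: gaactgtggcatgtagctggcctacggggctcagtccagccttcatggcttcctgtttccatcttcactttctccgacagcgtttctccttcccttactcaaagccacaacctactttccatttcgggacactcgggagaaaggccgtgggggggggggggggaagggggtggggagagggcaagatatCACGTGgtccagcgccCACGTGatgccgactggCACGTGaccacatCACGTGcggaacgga
RefSeq held such a stretch for 8 of the 10 genes, all but Ctsb and Ctsh. The letters CACGTG, which read alike on both strands, occurred 4 times before Lamp1, 2 times before Ctsd and 1 time before Ctsl, and in 6.02% of all 32851 promoters of that length. The pattern with GAAA on either side of any 2 bases, searched on both strands, occurred 1 time before Ctss and 1 time before Lamp1, where it reads on the minus strand and is left in lower case, and in 2.98% of all promoters. CACGTG with GT before it and AC after it, a longer form of the same element, was in none of the 8 and in 0.240% of all. GAGGAA, letters that hold the known core of ETS factors, occurred on either strand before Ctss, Ctsc, Cst3 and Lamp2, and in 23.3% of all promoters. A match of letters is a description of the sequence and no sign that a factor binds there.

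Cathepsin and Lamp RNA was detected in every library. Levels between genes are compared as the sum of each gene's transcript FPKM, since the deposited gene value divides by the joined length of all exons and is lower where a gene has long alternative exons. On that scale, in control glands, Lamp1 averaged 191 ± 17.5 FPKM (SD, n = 3) and Ctsd 173 ± 22.2 FPKM, and their SDs overlap. Lamp2 (76.6 ± 8.32), Ctsl (76.4 ± 15.1), Ctsb (70.5 ± 8.44), Ctsz (65.5 ± 5.41) and Ctsc (65.0 ± 4.89 FPKM) followed in a second band in which no neighbours differed beyond their SD. Cst3 (50.4 ± 8.68) and Ctss (49.1 ± 13.5 FPKM) lay next. Ctsh, an aminopeptidase, was listed at 21.1 ± 16.1 FPKM, but its listed transcripts account for as little as 0.115 of its gene value in a library and for all of it in none within 1%, so its place in the order is uncertain. In NOD glands Ctss was the lowest of the other 9 genes, with 15.6 ± 4.97 FPKM at 12 weeks and 11.1 ± 1.38 FPKM at 8 weeks.

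**Figure D1:**
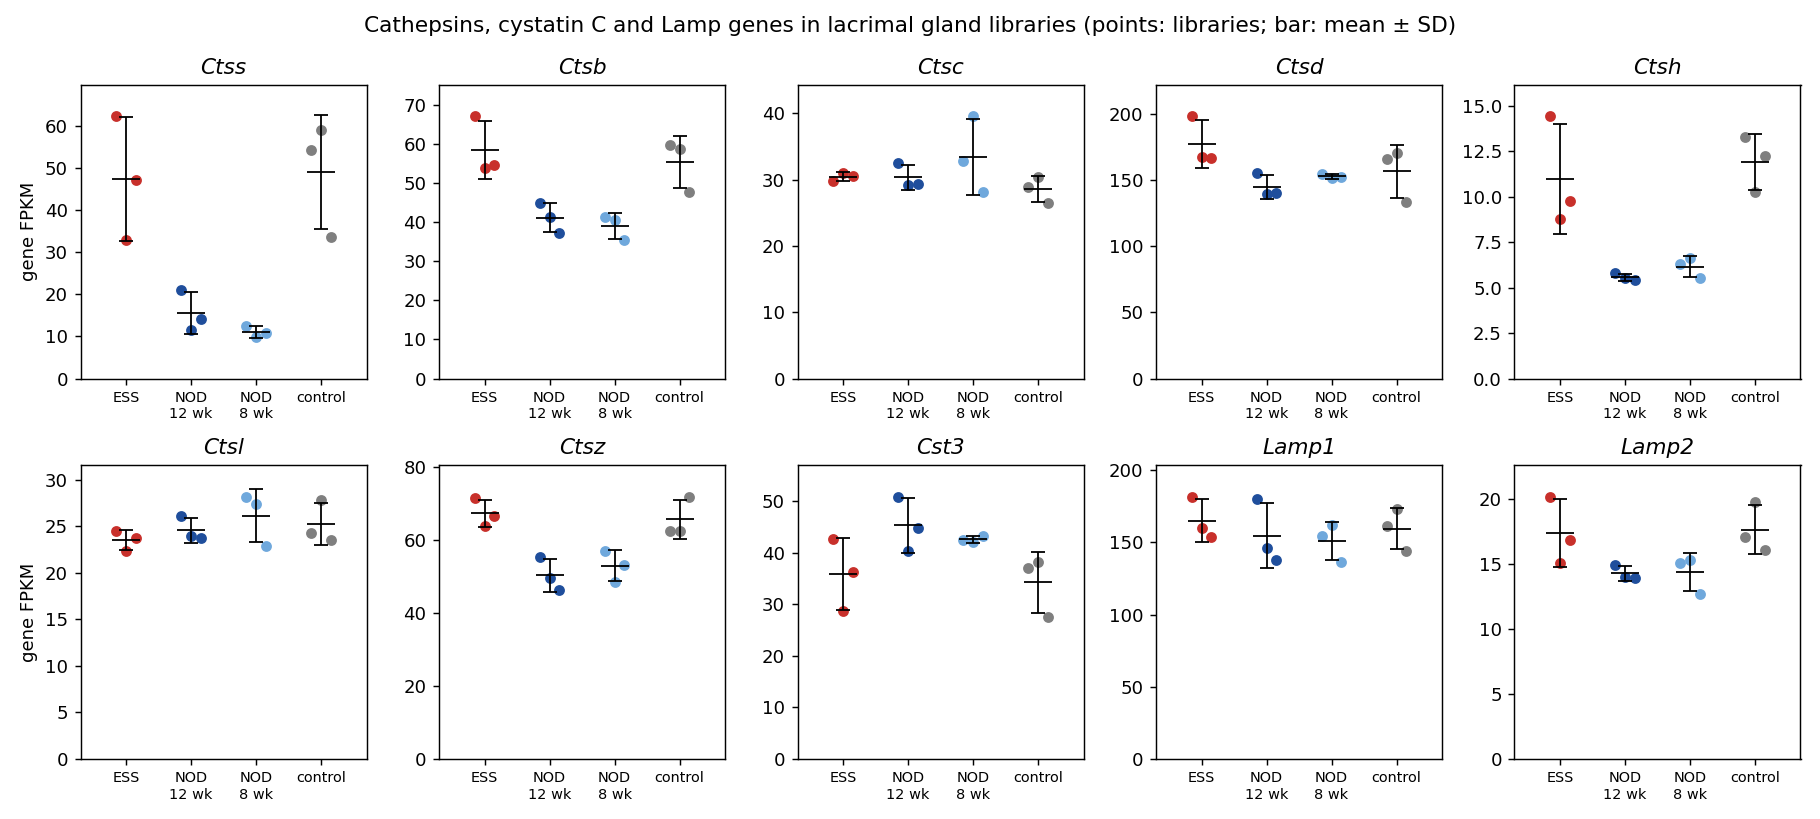
Gene FPKM of the 10 genes in each of the 12 libraries, with 1 panel a gene, groups on the horizontal axis, points for libraries and bars for mean ± SD of 3 libraries. All NOD libraries lie below all ESS and control libraries for Ctss, Ctsb, Ctsh and Ctsz, while Ctsc, Ctsl and Lamp1 overlap in all groups.

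Values from here on are the deposited gene FPKM unless transcripts are named. Ctss had 62.2, 32.8 and 47.1 FPKM in the 3 ESS libraries, 21.1, 11.4 and 14.2 FPKM in NOD at 12 weeks, 12.5, 9.83 and 10.8 FPKM in NOD at 8 weeks, and 54.1, 59.1 and 33.6 FPKM in control. The highest NOD library was below the lowest ESS or control library, and ESS and control overlapped. Ctsb, a broadly expressed cysteine protease encoded on chromosome 14, had 67.1, 53.9 and 54.6 FPKM in ESS, 45.0, 41.2 and 37.3 FPKM in NOD at 12 weeks, 41.3, 40.6 and 35.3 FPKM in NOD at 8 weeks, and 59.7, 58.6 and 47.8 FPKM in control. The same split held, with a gap of a few FPKM between the highest NOD and the lowest control library. Ctsh, on chromosome 9, had 14.4, 8.77 and 9.79 FPKM in ESS, 5.79, 5.52 and 5.42 FPKM in NOD at 12 weeks, 6.29, 6.64 and 5.55 FPKM in NOD at 8 weeks, and 13.3, 10.3 and 12.2 FPKM in control. NOD libraries were low and close together for Ctsh. Ctsz, a carboxypeptidase encoded on chromosome 2, had 71.3, 63.8 and 66.4 FPKM in ESS, 55.2, 49.5 and 46.2 FPKM in NOD at 12 weeks, 56.9, 48.5 and 53.0 FPKM in NOD at 8 weeks, and 62.4, 62.4 and 71.8 FPKM in control. Its NOD libraries were again all lower than its ESS and control libraries. Cst3, the inhibitor, which lies on the minus strand of chromosome 2 at 148871722-148875692, had 42.7, 28.7 and 36.2 FPKM in ESS, 50.9, 40.3 and 44.9 FPKM in NOD at 12 weeks, 42.5, 42.0 and 43.3 FPKM in NOD at 8 weeks, and 37.1, 38.2 and 27.5 FPKM in control. Every NOD library was above every control library for Cst3, and ESS library 1 lay within the NOD range.

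None of the remaining genes passed a test with the values as deposited in the fit of 4 group means to all 12 libraries. Ctsd averaged 177 ± 17.9 FPKM in ESS, 145 ± 8.79 in NOD at 12 weeks, 153 ± 1.68 in NOD at 8 weeks and 156 ± 20.1 FPKM in control (SD, n = 3 each). Lamp1 averaged 165 ± 14.8, 155 ± 22.4, 151 ± 13.2 and 160 ± 14.5 FPKM in ESS, NOD 12-week, NOD 8-week and control glands. Ctsl, a cysteine endopeptidase, averaged between 23.5 and 26.2 FPKM and Ctsc, which activates serine proteases of leukocyte granules, between 28.6 and 33.5 FPKM over the 4 groups. Lamp2, on chromosome X, averaged 17.4 ± 2.61 FPKM in ESS, 14.3 ± 0.552 in NOD at 12 weeks, 14.4 ± 1.46 in NOD at 8 weeks and 17.6 ± 1.89 FPKM in control. Its NOD libraries were all lower than the control libraries.

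ESS glands were set against control glands to ask whether the induced model shifts these genes. None of the 10 passed the test, and no gene separated the 2 groups. Values of log2(FPKM + 1) were compared with limma in a fit of all genes and libraries, with Benjamini-Hochberg adjustment at 0.05, and 0.165% of all genes were called in this comparison. Of the 10 genes 0 were called, 0 had an unadjusted p under 0.05 and 0 had groups that did not overlap, against 18.2% of all genes. Over all genes 0.0678% rose and 0.0969% fell. The log2 fold change of Ctss was -0.05 ± 0.27 (SE, adjusted p = 0.953 with limma), and the others lay between -0.13 for Ctsh and 0.18 for Ctsd, whose adjusted p was 0.498. With 3 libraries a group a small change would not have been detectable. Removal of ESS libraries 1 and 2, which leaves 1 ESS library assumed to vary like the other groups, also gave 0 calls.

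NOD glands at 12 weeks had lower Ctss, Ctsh, Ctsb and Ctsz than control glands, while Cst3 was higher in every NOD library without passing the test. Ctss fell most, to 15.6 ± 4.96 FPKM in NOD at 12 weeks against 49.0 ± 13.5 FPKM in control, a log2 fold change of -1.59 ± 0.27 (adjusted p = 0.00106, limma). Ctsh fell to 5.57 ± 0.192 FPKM against 11.9 ± 1.54 FPKM in control, with a log2 fold change of -0.97 ± 0.15 (adjusted p = 0.000751, limma). Ctsb fell to 41.2 ± 3.81 against 55.4 ± 6.61 FPKM in control, by -0.42 ± 0.12 (adjusted p = 0.0199, limma). Ctsz fell to 50.3 ± 4.55 against 65.5 ± 5.41 FPKM in control, by -0.38 ± 0.10 (adjusted p = 0.0111, limma). Cst3 had 45.4 ± 5.33 FPKM in NOD at 12 weeks and 34.3 ± 5.91 FPKM in control, a log2 difference of 0.40 ± 0.15 (adjusted p = 0.0612, limma). So 4 of the 10 genes fell and 0 rose, where 27.8% of all genes fell, 5.52% rose and 33.4% were called either way. The groups did not overlap for 6 genes, the 4 called ones with Cst3 and Lamp2, where 49.2% of all genes did not overlap. Over only 10 genes, 4 falls against this background are not read as particular to them.

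The scale of the values bears on the smaller of these changes. The median of all genes was -0.18 in NOD at 12 weeks against control, and relative to it Ctss stood at -1.41, Ctsh at -0.79, Ctsb at -0.23, Ctsz at -0.19 and Cst3 at 0.59. Under quantile normalization, centred library medians and rescaling without the 50 most abundant genes, each of which brings that median close to 0, the split was 2 rising to 2 falling: Ctss and Ctsh were called lower in all 3, Ctsb (adjusted p = 0.0983, 0.0909 and 0.149) and Ctsz (0.0804, 0.161 and 0.214) lost their calls, and Cst3 (0.0115, 0.0123 and 0.00756) and Ctsc (0.0459, 0.0391 and 0.0485) were called higher with limma. Of all genes 12.6%, 12.7% and 11.6% rose and 13.0%, 12.0% and 12.7% fell under these 3 scalings. The call of Ctsb also went without control library 1 (adjusted p = 0.0692), control library 2 (0.0648), NOD 12-week library 2 (0.0535) or NOD 12-week library 3 (0.0813), and that of Ctsz without NOD 12-week library 3 (0.0514). Cst3 was called higher without ESS library 1 (adjusted p = 0.0442), ESS library 2 (0.0393) or both (0.0431), which enter through the shared spread alone. Ctss was called lower in 22 of 22 alternatives, with adjusted p between 0.000645 and 0.00607. Ctsh was called in 21 of 22. It was lost with transcript FPKM summed per gene (-0.53, adjusted p = 0.564), where its main transcript Ctsh-201 was listed at 2.60 FPKM in NOD 12-week library 3 and 3.30 FPKM in control library 3 while the gene values there were like those of their groups.

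**Figure D2:**
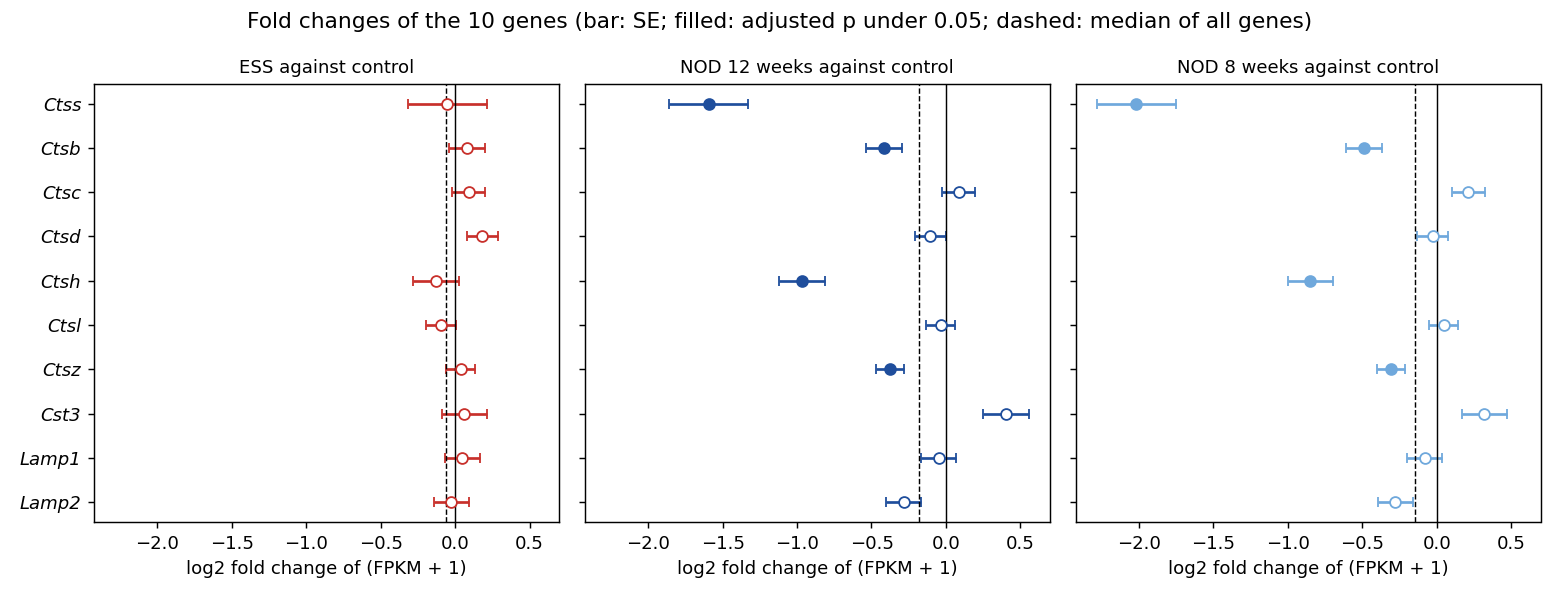
Log2 fold change of (FPKM + 1) of the 10 genes against control, in 3 panels for ESS, NOD at 12 weeks and NOD at 8 weeks, with points for the limma estimate, bars for its SE, filled points for adjusted p under 0.05 and a dashed line at the median of all genes. ESS points lie near 0, Ctss lies farthest to the left at both NOD ages, and Cst3 lies to the right of 0 at both.

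NOD glands at 8 weeks showed the same 4 genes lower. Ctss fell to 11.1 ± 1.38 FPKM in NOD at 8 weeks against 49.0 ± 13.5 FPKM in control, which is 0.226 of the control mean, with a log2 fold change of -2.02 ± 0.27 (adjusted p = 0.000236, limma). Ctsh fell to 6.16 ± 0.557 FPKM against 11.9 ± 1.54 FPKM in control (-0.85, adjusted p = 0.00197, limma), and Ctsb fell to 39.1 ± 3.28 against 55.4 ± 6.61 FPKM in control (-0.49, adjusted p = 0.0108, limma). Ctsz fell to 52.8 ± 4.25 against 65.5 ± 5.41 FPKM in control (-0.31, adjusted p = 0.0338, limma). Cst3 had 42.6 ± 0.658 FPKM in NOD at 8 weeks and 34.3 ± 5.91 FPKM in control (0.32, adjusted p = 0.141, limma). Of the 10 genes 4 fell and 0 rose, where 22.1% of all genes fell, 5.30% rose and 27.4% were called either way. The groups did not overlap for 6 of the 10, against 40.9% of all genes, and again 4 falls among 10 genes are not read as particular to them. Both NOD comparisons use the same control libraries.

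At 8 weeks the median of all genes was -0.15, and relative to it Ctss stood at -1.87, Ctsh at -0.70, Ctsb at -0.34, Ctsz at -0.16 and Cst3 at 0.47. Under the same 3 scalings, in the order given for 12 weeks, 3 genes fell in each, and 2, 3 and 2 rose. Of all genes 12.3%, 11.1% and 13.9% fell and 11.0%, 12.3% and 8.88% rose. Ctsz lost its call in all 3 (adjusted p = 0.0811, 0.326 and 0.201), Cst3 (0.0489, 0.0302 and 0.0342) and Ctsc (0.0183, 0.00844 and 0.0276) were called higher with limma, and Ctsl was called higher with centred medians (0.0398). The call of Ctsz was also lost without control library 3 (adjusted p = 0.110), NOD 8-week library 2 (0.114), NOD 8-week library 3 (0.0638) or both ESS libraries with salivary transcripts (0.0542), and Ctsc was called higher without NOD 8-week library 3 (0.0379). Ctss (adjusted p between 0.000173 and 0.00178) and Ctsb (at most 0.0422) were called lower in 22 of 22 alternatives, and Ctsh in 21 of 22, with a log2 fold change of 0.06 under summed transcript FPKM (adjusted p = 0.959).

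Between the NOD ages, 0 of the 10 genes were called with limma, 0 had an unadjusted p under 0.05 and 0 had groups that did not overlap, where 0.126% of all genes were called (0.0775% higher, 0.0484% lower at 12 weeks) and 15.5% did not overlap. Ctss averaged 15.6 ± 4.96 FPKM at 12 weeks and 11.1 ± 1.38 FPKM at 8 weeks, a log2 difference of 0.42 ± 0.27 (adjusted p = 0.693, limma), with NOD 12-week library 1 the highest.

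ESS glands were also set against NOD glands directly. Ctss, Ctsb, Ctsh and Ctsz were higher in ESS than in NOD glands of either age. Ctss averaged 47.4 ± 14.7 FPKM in ESS against 15.6 ± 4.96 FPKM in NOD at 12 weeks, a log2 fold change of 1.54 ± 0.27 (adjusted p = 0.00207, limma). Against 11.1 ± 1.38 FPKM in NOD at 8 weeks the log2 fold change of Ctss in ESS was 1.96 ± 0.27 (adjusted p = 0.000400, limma). Ctsh stood higher in ESS by 0.84 against 12 weeks (adjusted p = 0.00293) and 0.72 against 8 weeks (0.00806), Ctsb by 0.49 (0.0131) and 0.57 (0.00746), and Ctsz by 0.41 (0.0106) and 0.34 (0.0313, limma). Of the 10 genes 4 were called higher and 0 lower in ESS against 12 weeks, where 16.2% of all genes were higher, 4.44% lower and 20.6% called. The groups did not overlap for 6 genes, and for 41.5% of all genes. Likewise 4 were higher and 0 lower against 8 weeks, where 11.3% of all genes were higher, 3.94% lower and 15.2% called. The groups did not overlap for 5 genes, and for 33.1% of all genes. Without both ESS libraries with salivary transcripts, Ctss (adjusted p = 0.0234) and Ctsh (0.0262) were called against 12 weeks and Ctss (0.00766) against 8 weeks, while Ctsb had 0.191 and 0.150, Ctsz 0.150 and 0.270, and Ctsh 0.0613 against 8 weeks (limma). Against 12 weeks the call of Ctsb was also lost without ESS library 1 (adjusted p = 0.0564) or NOD 12-week library 3 (0.0592), and that of Ctsz without NOD 12-week library 3 (0.0509), while Ctsd was called higher without control library 3 (0.0306, limma). Against 8 weeks the call of Ctsz was lost without ESS library 1 (adjusted p = 0.112), ESS library 3 (0.0729), NOD 8-week library 2 (0.108) or NOD 8-week library 3 (0.0598, limma). With summed transcript FPKM the adjusted p of Ctsh was 0.165 against 12 weeks and 0.481 against 8 weeks. Under the 3 scalings the split of higher to lower calls became 3 to 1, 4 to 0 and 2 to 2 against 12 weeks. Beside it, 8.765%, 9.017% and 6.301% of all genes were higher and 8.717%, 8.048% and 11.94% lower. The split was 3 to 1 in each against 8 weeks. There 7.952%, 7.690% and 6.563% of all genes were higher and 7.351%, 7.419% and 8.019% lower. The lower calls were Cst3 and Ctsl against 12 weeks and Ctsl against 8 weeks. Ctss was called higher in ESS in 22 of 22 alternatives in both comparisons.

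The balance of cathepsin S to its inhibitor was read as the ratio of both within a library, which does not depend on scaling. The ratio of Ctss to Cst3 FPKM was 1.46, 1.14 and 1.30 in ESS, 0.414, 0.284 and 0.317 in NOD at 12 weeks, 0.296, 0.234 and 0.249 in NOD at 8 weeks, and 1.46, 1.55 and 1.22 in control. Every NOD library had a lower ratio than every ESS and control library. The level of the ratio depends on how each gene is divided by length: on summed transcript FPKM it ran from 0.764 to 0.974 in ESS, 0.191 to 0.278 in NOD at 12 weeks, 0.158 to 0.200 in NOD at 8 weeks and 0.833 to 1.05 in control, with the NOD libraries again the lowest. On the log2 scale the mean ratio was -1.58 ± 0.28 in NOD at 12 weeks and 0.49 ± 0.17 in control (SD, n = 3 each), a difference of -2.07 (exact two-sided permutation p = 0.1). In NOD at 8 weeks it was -1.95 ± 0.17, a difference of -2.44 from control (exact permutation p = 0.1). In ESS it was 0.37 ± 0.18, a difference of -0.12 from control (exact permutation p = 0.5), of 1.95 from NOD at 12 weeks and of 2.32 from NOD at 8 weeks (exact permutation p = 0.1 each). The ages of NOD differed by 0.37 (exact permutation p = 0.2). With 3 against 3 the smallest p that the exact test can give is 0.1, and adjusted over the 6 comparisons that is 0.15, so this test cannot pass 0.05. A ratio shows unequal change and not which gene moved.

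Within the summed transcript FPKM of the 7 cathepsins, a scale on which genes can be added, Ctss held a smaller share in NOD glands and Ctsd had the highest level in every library. The sum averaged 562 FPKM in ESS, 440 FPKM in NOD at 12 weeks, 461 FPKM in NOD at 8 weeks and 520.4 FPKM in control. Ctss made up 6.33% to 9.96% of it in ESS libraries, 2.68% to 4.40% in NOD at 12 weeks, 2.07% to 2.64% in NOD at 8 weeks and 7.42% to 10.4% in control, so that each NOD library was below each ESS and control library. Ctsd made up on average 35.1% in ESS, 36.4% in NOD at 12 weeks, 36.7% in NOD at 8 weeks and 33.1% in control. Ctsh enters these sums with the uncertain transcript values described above.

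Most of the tested markers of macrophages and dendritic cells moved with Ctss. Of 20 markers 18 had values and 17 were tested. In NOD at 12 weeks 11 of the 17 fell and 0 rose, in NOD at 8 weeks 12 fell and 0 rose, and in ESS 0 passed, each against control with limma, where of all genes 27.8% fell and 5.52% rose at 12 weeks and 22.1% fell and 5.30% rose at 8 weeks. Under quantile normalization, centred medians and rescaling 9, 9 and 9 fell at 12 weeks, beside 13.0%, 12.0% and 12.7% of all genes, and 11, 10 and 12 at 8 weeks, beside 12.3%, 11.1% and 13.9% of all genes. The list median was -0.90 at 12 weeks and -1.04 at 8 weeks. The markers with the smallest adjusted p were Fcer1g, a signalling chain of Fc receptors (4.49 ± 2.65 FPKM in NOD at 12 weeks against 23.0 ± 3.71 FPKM in control), Mpeg1, a pore protein of macrophages, C1qa, a complement protein, and Tyrobp, a signalling adaptor. The summed FPKM of the 18 markers ranged from 262 to 431 in ESS, 123 to 187 in NOD at 12 weeks, 120 to 131 in NOD at 8 weeks and 218 to 346 in control, and no marker was at 0 in all libraries of a group. Mrc1 (adjusted p = 0.747 at 12 weeks), Itgam (0.268), Cx3cr1 (0.234), Csf1r (0.209), Cd14 (0.0993) and Adgre1 (0.0842, limma) did not pass. Of these Itgam (0.31) and Mrc1 (0.075) had log2 fold changes above 0 at 12 weeks, and the others lay below 0. Flt3 and Xcr1 were not analysed here. In bulk tissue, fewer cells of a type and less RNA per cell cannot be told apart, and the part of these markers in the fall of Ctss was not tested. Ctss per marker FPKM was 0.144, 0.125 and 0.159 in ESS, 0.113, 0.0930 and 0.114 in NOD at 12 weeks, 0.0992, 0.0750 and 0.0903 in NOD at 8 weeks, and 0.162, 0.171 and 0.154 in control. This quotient, too, was lower in each NOD library than in each ESS and control library, by a smaller factor than Ctss itself. Its divisor adds deposited gene FPKM, which depend on exon length, and leans on a few genes. In control Lyz2 averaged 79.7, C1qa 53.2 and C1qb 44.9 FPKM, beside a mean marker sum of 299 FPKM.

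**Figure D3:**
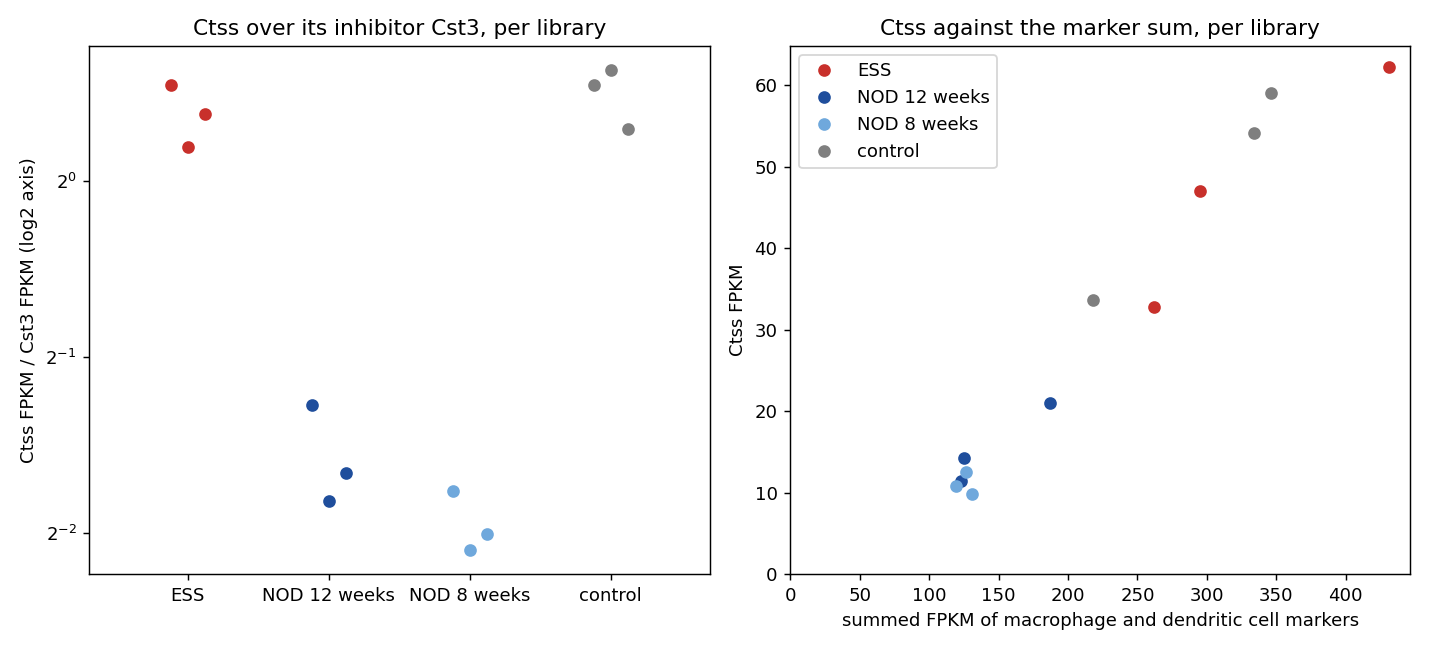
Left, the ratio of Ctss to Cst3 FPKM in each library by group on a log2 axis. Right, Ctss FPKM of each library against the summed FPKM of 18 macrophage and dendritic cell markers, coloured by group. The NOD libraries lie below all ESS and control libraries at left and at the low end of both axes at right.

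The genes of class II loading, in which cathepsin S acts, had lower FPKM in NOD glands. How well reads of NOD mice map to the GRCm38 build at these genes was not tested. Of 6 tested genes 6 fell in NOD at 12 weeks and 6 fell in NOD at 8 weeks against control, and 0 passed in ESS (limma), where 27.8% and 22.1% of all genes fell at these ages. Under quantile normalization or centred medians 5 fell at 8 weeks, beside 12.3% and 11.1% of all genes. Cd74, given here because it is the substrate of cathepsin S, averaged 97.2 ± 22.7 FPKM in NOD at 12 weeks and 213 ± 49.3 FPKM in control (adjusted p = 0.00430, limma). In NOD at 8 weeks Cd74 averaged 69.3 ± 8.30 FPKM (adjusted p = 0.000573 against control, limma). H2-DMb1, a chain of the peptide-loading chaperone, averaged 0.744 ± 0.0494 FPKM in NOD at 12 weeks and 8.20 ± 0.828 FPKM in control. That NOD mean is under the 1 FPKM of the filter, so H2-DMb1 was tested through groups with higher values. The class II chain H2-Aa averaged 18.0 ± 5.50 FPKM in NOD at 12 weeks and 78.0 ± 13.2 FPKM in control. Of 8 markers of lymphocytes and antibody-secreting cells 4 had values, and the 2 tested, Jchain and Mzb1, rose at both NOD ages. Of all genes 5.52% rose at 12 weeks and 5.30% at 8 weeks. Mzb1 averaged 0.150 ± 0.164 FPKM in control, 3.35 ± 0.665 in NOD at 12 weeks and 1.95 ± 0.210 FPKM in NOD at 8 weeks. It met the filter for testing only through the NOD libraries, so its rise was largely fixed in advance. Jchain, the joining chain of IgA and IgM, averaged 58.6 ± 7.01 FPKM in NOD at 12 weeks and 2.18 ± 0.514 FPKM in control, and 31.8 ± 6.89 FPKM in NOD at 8 weeks, and it rose in ESS as well (adjusted p = 0.000187, limma). The summed FPKM of the 4 markers ranged from 14.7 to 17.3 in ESS, 56.8 to 71.5 in NOD at 12 weeks, 26.2 to 38.9 in NOD at 8 weeks and 2.77 to 3.60 in control, most of it Jchain. The general leukocyte gene Ptprc, too low to be tested, averaged 0.693 ± 0.255 FPKM in ESS, 0.355 ± 0.130 in NOD at 12 weeks, 0.227 ± 0.0309 in NOD at 8 weeks and 0.769 ± 0.0338 FPKM in control, and the B cell gene Cd79a averaged 0.238 FPKM in ESS, 0.798 in NOD at 12 weeks, 0.245 in NOD at 8 weeks and 0.0321 FPKM in control. Their part in the results for cathepsins was not tested.

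The genes whose pattern over the 12 libraries was most like that of Ctss were Laptm5 (Pearson r = 0.987 of log2 values), C1qa (0.983), Slfn1 (0.983), C1qb (0.981) and Mpeg1 (0.981). All of these but Slfn1 belong to the macrophage and dendritic cell list. For Cst3 they were Spata6 (0.945), Steap3 (0.914), Nadsyn1 (0.894), Chchd6 (0.889) and C1galt1c1 (0.888), none of them on any list used here. The 12 libraries form 4 groups and share their scaling, so these are descriptions.

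At the level of transcripts, Ctss was listed as 2 forms that differ by very little. Ctss-201 and Ctss-202 are both 1355 bases long with 8 exons, of which 6 have identical ends. The second exon starts 3 bases earlier in Ctss-201, which gives coding lengths of 1023 and 1020 bases, and the last exon ends 3 bases later in Ctss-202. The junction of exons 1 and 2 (plus strand of chromosome 3, between 95526911 and 95529448 of GRCm38) is printed for both with the 3 added bases in capitals, since this is the place in the coding sequence where reads tell them apart.
Ctss-201: tggccacgctgccatCAGaagatggctgtt
Ctss-202: tggccacgctgccataagatggctgtt
Ctss-201 had 32.5, 4.62 and 30.1 FPKM in ESS, 1.27, 3.02 and 2.23 FPKM in NOD at 12 weeks, 0.897, 1.58 and 0 FPKM in NOD at 8 weeks, and 31.1, 3.38 and 27.1 FPKM in control. It was high in 2 of 3 ESS and 2 of 3 control libraries and low in the third of each and in all NOD libraries. Ctss-202 had 29.9, 28.3 and 17.1 FPKM in ESS, 19.8, 8.45 and 12.0 FPKM in NOD at 12 weeks, 11.7, 8.27 and 10.8 FPKM in NOD at 8 weeks, and 23.1, 55.8 and 6.59 FPKM in control. For Ctss-202 the NOD and control ranges overlap, because control library 3 had the lowest value of all. Ctss-201 made up on average 47.2% of Ctss in ESS, 13.9% in NOD at 12 weeks, 7.44% in NOD at 8 weeks and 41.9% in control, and between 5.72% and 80.5% in single control libraries. With such spread between control libraries, no difference in the use of the forms is called here. The listed value of 0 can be a failed estimate.

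**Figure D4:**
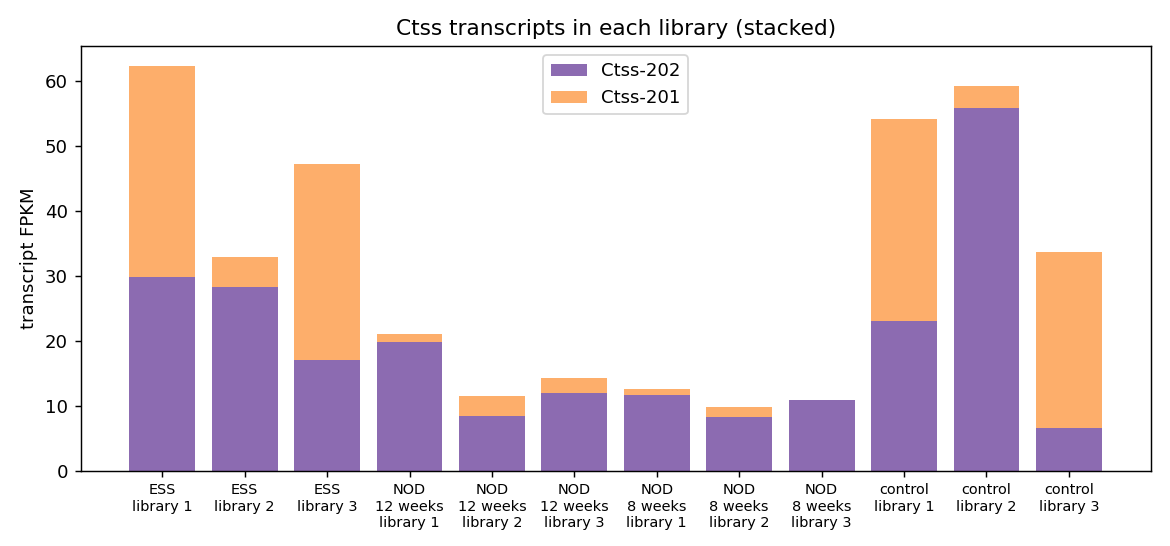
Stacked bars of transcript FPKM of Ctss-202 and Ctss-201 in each of the 12 libraries. The sum is low in all 6 NOD libraries, and the split between the forms varies widely among the ESS and the control libraries.

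Of the other genes, Ctsc, Ctsd, Ctsh and Lamp2 had 2 forms with at least 5% of the gene in some group, and the remaining 5 had 1. Ctsc-203, a form with 4 exons in place of the 7 of Ctsc-201, made up 13.8% to 14.6% of Ctsc in NOD libraries at 12 weeks, 14.9% to 15.4% at 8 weeks, 7.06% to 10.0% in ESS and 7.94% to 8.84% in control. Every NOD library was above every ESS and control library, a difference that was not tested. Ctsd-201 was listed at 22.6 and 30.9 FPKM in ESS libraries 1 and 2, the libraries with salivary transcripts, at 13.8 FPKM in NOD 8-week library 2, and at 0 in the other 9. Lamp2-201 and Lamp2-202 shared nearly all of the gene, with Lamp2-201 at 71.5% in ESS, 71.7% in NOD at 12 weeks, 72.7% in NOD at 8 weeks and 76.4% in control on average.

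Wider lists of lysosomal genes, none holding any of the 10, were described against control in the same fit, and 0 members of any passed in ESS. Of 11 other cathepsins and lysosomal proteases tested, 6 fell and 0 rose in NOD at 12 weeks, where 27.8% of all genes fell and 5.52% rose, and 5 fell and 0 rose at 8 weeks, where 22.1% fell and 5.30% rose, with a median of -0.52 at each age, where the median of all genes was -0.18 and -0.15. Prcp, a carboxypeptidase, averaged 0.671 ± 0.164 FPKM in NOD at 12 weeks and 1.80 ± 0.396 FPKM in control (adjusted p = 0.00107, limma). Tpp1, the tripeptidyl peptidase lost in a childhood neuronal storage disease, averaged 6.91 ± 0.250 and 11.3 ± 1.73 FPKM in the same groups. Ctsk, the main collagen-degrading protease of osteoclasts, averaged 0.982 ± 0.193 and 2.92 ± 1.10 FPKM, and Cpq, a further peptidase, 1.25 ± 0.149 and 2.22 ± 0.147 FPKM. Prcp and Ctsk averaged under the 1 FPKM of the filter in NOD at 12 weeks and were tested through groups with higher values. Under the 3 scalings 4 to 5 fell and 0 rose at 12 weeks, and 4 fell with 0 to 1 rising at 8 weeks. Of all genes 13.0%, 12.0% and 12.7% fell and 12.6%, 12.7% and 11.6% rose at 12 weeks. At 8 weeks 12.3%, 11.1% and 13.9% fell and 11.0%, 12.3% and 8.88% rose. The 4 genes named were called lower in each scaling at 12 weeks. Of 15 cystatins besides Cst3, 1 could be tested: the intracellular inhibitor Cstb fell to 48.3 ± 5.05 FPKM in NOD at 12 weeks and 54.0 ± 4.48 FPKM at 8 weeks, against 75.1 ± 3.93 FPKM in control (adjusted p = 0.00107 and 0.00689, limma), and it was called lower under all 3 scalings. 

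The remaining lists are given beside the same background, 27.8% of all genes falling and 5.52% rising at 12 weeks and 22.1% falling and 5.30% rising at 8 weeks. Of 22 other membrane proteins, 2 rose and 5 fell at 12 weeks and 2 rose and 4 fell at 8 weeks. The sialic acid exporter Slc17a5 rose to 37.1 ± 1.99 FPKM in NOD at 12 weeks against 24.4 ± 1.21 FPKM in control (adjusted p = 0.000331, limma), and the tetraspanin Tspan1 rose to 4.65 ± 0.912 against 2.16 ± 0.258 FPKM in control. Laptm5, a leukocyte protein that also belongs to the macrophage list, as Cd68 does, fell to 3.17 ± 1.08 against 7.39 ± 1.72 FPKM in control, and the cholesterol carrier Npc2 fell to 7.11 ± 0.749 against 11.5 ± 0.408 FPKM in control. Of 39 hydrolases and their activators, 2 rose and 10 fell at 12 weeks and 2 rose and 7 fell at 8 weeks, shares of falls near or below those of all genes, so the members named are single results and say nothing of the list. The mannosidase Man2b1 fell to 4.03 ± 0.559 FPKM in NOD at 12 weeks against 8.74 ± 0.618 FPKM in control, the sulfatase Galns fell to 3.38 ± 0.780 against 8.85 ± 2.05, and the sialidase Neu1 fell to 6.20 ± 0.312 against 8.33 ± 0.249 FPKM in control. Acp5, an acid phosphatase, rose to 11.5 ± 0.813 against 6.32 ± 1.99 FPKM in control.

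Subunits of the V-ATPase, the proton pump that acidifies lysosomes, fell in 8 of 19 cases with 0 rises at 12 weeks, and in 5 with 1 rise at 8 weeks. Atp6v0e fell to 5.99 ± 0.297 FPKM in NOD at 12 weeks against 10.7 ± 0.170 FPKM in control (adjusted p = 5.04e-05, limma), Tcirg1 fell to 3.27 ± 0.329 against 7.67 ± 1.50, Atp6v0b fell to 27.6 ± 3.50 against 48.9 ± 7.36, and Atp6v1d fell to 12.8 ± 0.419 against 17.0 ± 1.03 FPKM in control. Of 29 genes of lysosomal sorting and biogenesis, 8 fell and 0 rose at 12 weeks and 5 fell and 0 rose at 8 weeks, again near or below the shares of all genes (27.8% and 22.1%). Flcn, a regulator of nutrient signalling at the lysosome, fell to 6.89 ± 1.48 FPKM in NOD at 12 weeks against 14.5 ± 2.91 FPKM in control, Lamtor1, an anchor of that signalling, fell to 12.2 ± 0.749 against 17.5 ± 2.26, Vps16, a tethering subunit, fell to 8.79 ± 0.390 against 11.8 ± 0.956, and Borcs5, which couples lysosomes to transport, fell to 4.11 ± 0.355 against 6.53 ± 0.959 FPKM in control. At 12 weeks under quantile normalization, centred medians and rescaling, the rises and falls became 4 and 2, 4 and 2, and 4 and 3 for membrane proteins, 7 and 2, 6 and 2, and 6 and 2 for hydrolases, 1 and 4 in each for the V-ATPase, and 3 and 2, 4 and 2, and 3 and 2 for sorting and biogenesis. At 8 weeks they became 4 and 2, 4 and 3, and 4 and 3 for membrane proteins, 4 and 5, 4 and 4, and 4 and 5 for hydrolases, 2 and 4 in each for the V-ATPase, and 2 and 2, 3 and 1, and 2 and 2 for sorting and biogenesis. Of all genes, 12.6%, 12.7% and 11.6% rose and 13.0%, 12.0% and 12.7% fell at 12 weeks under the same scalings, and 11.0%, 12.3% and 8.88% rose and 12.3%, 11.1% and 13.9% fell at 8 weeks. Of the 16 genes named from them, Neu1 (adjusted p = 0.117, 0.105 and 0.0886), Lamtor1 (0.0601, 0.0703 and 0.0722) and Vps16 (0.0847, 0.0729 and 0.0961) lost the call at 12 weeks under all 3 scalings and Atp6v1d under rescaling (0.0841, limma). The list medians at 12 weeks (-0.13, -0.16, -0.26 and -0.12) stood beside -0.18 for all genes.

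**Figure D5:**
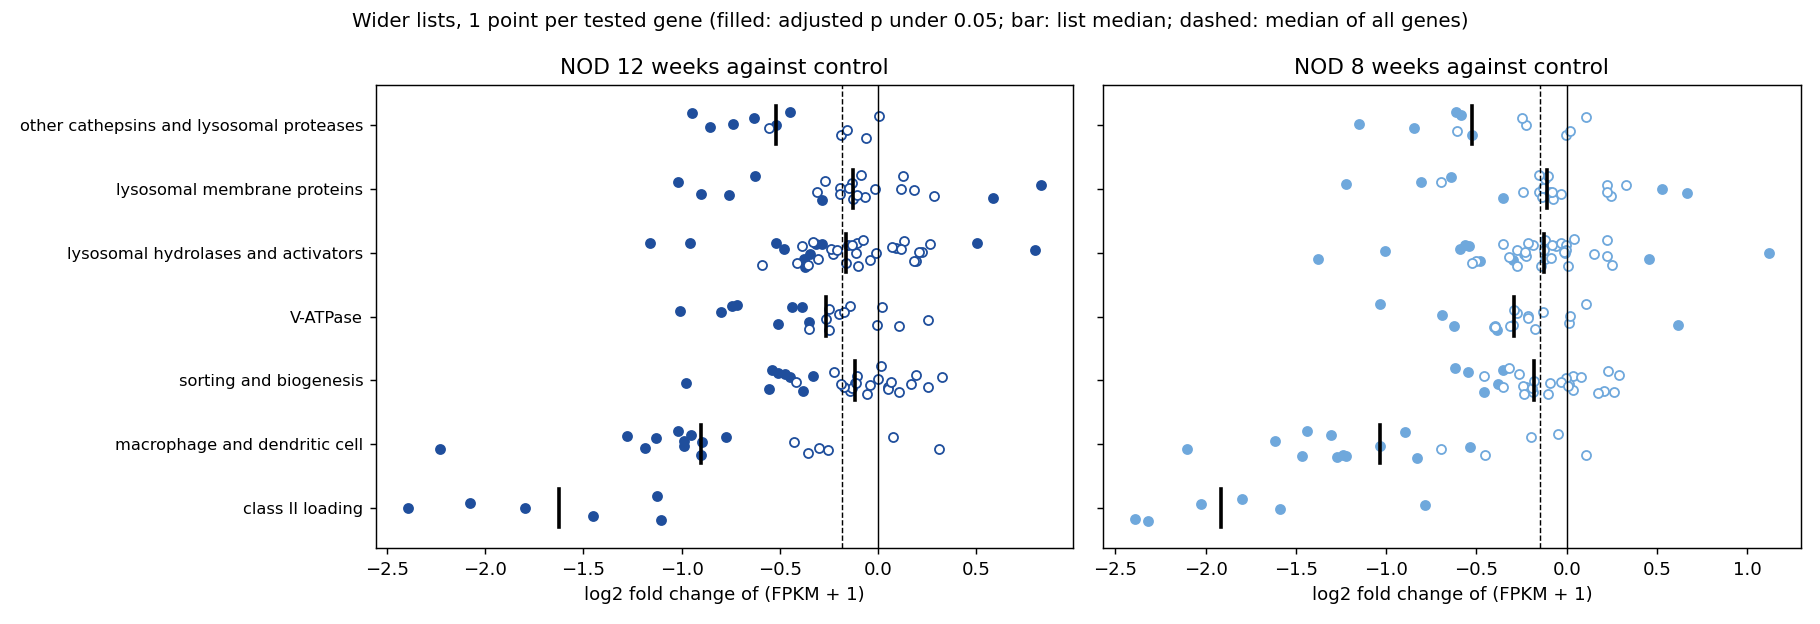
Log2 fold change of (FPKM + 1) against control for the tested genes of 7 lists, at 12 weeks left and 8 weeks right in NOD, with 1 point a gene, filled where adjusted p was under 0.05, bars at list medians and a dashed line at the median of all genes. The class II and macrophage lists lie farthest left, and membrane proteins and hydrolases spread to both sides.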

How the data were processed

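RNA from lacrimal glands was extracted with Trizol and made into stranded libraries with a KAPA kit, per the labels' protocols. The authors deposited FPKM per gene and per transcript, per the file headers, and the build was GRCm38, per the submitters' processing notes. No source used here names the aligner or the annotation. The gene value equals, within 1% in all 12 libraries for 7 of the 10 genes, the summed products of transcript FPKM and length, divided by the length of all exons joined (GENCODE M21); for Ctsh it did not, by up to a rebuilt fraction of 0.115.

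Values were analysed as log2(FPKM + 1), which understates changes of low genes. Genes reaching 1 FPKM in 3 or more of the 12 libraries entered limma 3.58.1 (R 4.3.3, trend, 4 group means), with Benjamini-Hochberg adjustment at 0.05. The procedure was tested on simulated data. The ratio of Ctss to Cst3 was compared by exact permutation (scipy 1.17.1). The 10 genes, the lists and the tests were chosen with earlier results of these data known. The 4 members named from each list had the smallest adjusted p in NOD at 12 weeks, likeness was Pearson's r with the 5 highest genes named, and forms with at least 5% of a gene were described. Alternatives were pseudocounts, filters, scalings, a replicate block, summed transcripts and left-out libraries.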

Additional observations from a re-analysis of the deposited data

How the results depend on the processing

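Of the log2 fold changes of single genes under the alternatives, 1187 had the direction and side of the threshold reported, 39 lost the call, 25 gained one and 69 changed sign. Of those 69, 68 were past the threshold neither as reported nor in the alternative (lowest adjusted p there = 0.117), and 1 was called as reported: Ctsh in NOD at 8 weeks against control was 0.057 with summed transcript FPKM (adjusted p = 0.959, limma). The number of the 10 genes called moved over 1.5 times in 4 cases. It was 2 for NOD at 12 weeks against control and 2 for ESS against NOD at 12 weeks without NOD 12-week library 3, and without both ESS libraries with salivary transcripts it was 1 for ESS against NOD at 8 weeks and 2 for ESS against NOD at 12 weeks. Leaving out each library in turn gave 2 to 5 calls for NOD at 12 weeks against control and for ESS against NOD at 12 weeks, 3 to 4 for NOD at 8 weeks against control and for ESS against NOD at 8 weeks, and 0 for ESS against control and between NOD ages. Shares of all genes called are not given for these fits, so the counts of calls describe the 10 genes alone. Without each library in turn, the log2 ratio of Ctss to Cst3 differed from control by -2.23 to -1.95 in NOD at 12 weeks. At 8 weeks it differed by -2.54 to -2.37.

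Whether replicate numbers pair the samples is not known. Deviations from the group means of same-numbered libraries correlated between -0.10 and 0.20, with 1 of 18 pairs above 0.1. Pairs with unlike numbers were not set beside them, so this cannot decide it. The SE of each gene was smaller with a replicate block in the fit, as for Ctsb (0.0779 against 0.119) and Ctss (0.215 against 0.267). With the replicate block each gene called as reported kept its call. Ctsd was added in ESS against NOD at 12 weeks (adjusted p = 0.0455, limma), and no other call was gained. The share of all genes called with the block is not given here, so these calls are not set against other genes. Absolute depth is unknown, so no counting error can be given. With 3 libraries a group, the calls of Ctsz, and of Ctsb at 12 weeks, depend on single libraries and on scaling.

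The log2 fold changes that changed sign without being called were these. With centred medians, for ESS against control, Ctss was 0.018 and Lamp2 was 0.044. Without both ESS libraries with salivary transcripts, for ESS against control, Ctsb was -0.012 and Lamp1 was -0.051. With summed transcripts, for ESS against control, Ctsh was 0.83 and Ctsl was 0.019. Under quantile normalization, for ESS against control, Lamp2 was 0.019. With each library left out in turn, for ESS against control, Ctss ran from -0.30 to 0.18, Ctsb ran from -0.023 to 0.14, Ctsh ran from -0.33 to 0.0042, Ctsz ran from -0.0059 to 0.10, Cst3 ran from -0.086 to 0.21, Lamp1 ran from -0.023 to 0.11 and Lamp2 ran from -0.13 to 0.066. Under quantile normalization, for NOD at 12 weeks against control, Ctsd was 0.15, Ctsl was 0.16 and Lamp1 was 0.22. With centred medians, for NOD at 12 weeks against control, Ctsd was 0.083, Ctsl was 0.15 and Lamp1 was 0.14. Under rescaling, for NOD at 12 weeks against control, Ctsd was 0.11, Ctsl was 0.18 and Lamp1 was 0.17. With summed transcripts, for NOD at 12 weeks against control, Ctsl was 0.11. With each library left out in turn, for NOD at 12 weeks against control, Ctsl ran from -0.081 to 0.036 and Lamp1 ran from -0.16 to 0.028. Under quantile normalization, for NOD at 8 weeks against control, Ctsd was 0.068 and Lamp1 was 0.044. With centred medians, for NOD at 8 weeks against control, Ctsd was 0.14 and Lamp1 was 0.091. Under rescaling, for NOD at 8 weeks against control, Ctsd was 0.11 and Lamp1 was 0.060. With each library left out in turn, for NOD at 8 weeks against control, Ctsd ran from -0.14 to 0.038 and Ctsl ran from -0.0075 to 0.14. Under quantile normalization, for NOD at 12 against 8 weeks, Ctsd was 0.078, Ctsz was 0.0038 and Lamp2 was 0.050. Under rescaling, for NOD at 12 against 8 weeks, Ctsd was 0.0026, Ctsz was 0.0084 and Lamp2 was 0.072. With centred medians, for NOD at 12 against 8 weeks, Lamp2 was 0.013. With each library left out in turn, for NOD at 12 against 8 weeks, Cst3 ran from -0.0025 to 0.16, Lamp1 ran from -0.084 to 0.11 and Lamp2 ran from -0.085 to 0.043. Under quantile normalization, for ESS against NOD at 12 weeks, Ctsc was -0.17 and Lamp1 was -0.17. With centred medians, for ESS against NOD at 12 weeks, Ctsc was -0.11 and Lamp1 was -0.020. Under rescaling, for ESS against NOD at 12 weeks, Ctsc was -0.23 and Lamp1 was -0.14. Without both ESS libraries with salivary transcripts, for ESS against NOD at 12 weeks, Lamp1 was -0.00084. With each library left out in turn, for ESS against NOD at 12 weeks, Ctsc ran from -0.022 to 0.055. Under rescaling, for ESS against NOD at 8 weeks, Lamp1 was -0.032. With each library left out in turn, for ESS against NOD at 8 weeks, Ctsc ran from -0.23 to 0.0036.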
